A study of Rattus norvegicus with 15 samples.

Results

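Apolipoproteins, the proteins that carry and steer lipid in plasma lipoproteins, were followed in rat liver after diets with genistein or daidzein. The 10 members were Apon, Apoa1, Apoa2, Apoa4, Apoa5, Apob, Apoc3, Apoe, Apoh and Apom. They were matched through the array's annotation as every probe set that names only that gene, which gave 12 probe sets of the 31042 that were not controls. Of these, 11 were bright enough to be tested, among 18625 tested probe sets. The set was chosen with the results of all 3 diet comparisons known, and Apon was selected on its own diet differences. The members' differences below are therefore a description and carry no p-value.

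The rats were male Sprague-Dawley animals, 4 weeks old at the start, given 5 days to adapt and then fed for 14 days. The 3 diets were an isoflavone-free control diet, the same diet with 2 g/kg of daidzein and the same diet with 2 g/kg of genistein, and every diet held 200 g/kg of casein and 100 g/kg of palm oil. Both compounds are soy isoflavones of one scaffold, and genistein carries a hydroxyl group that daidzein lacks. Liver RNA of 5 rats per diet was hybridised to 1 single-channel Affymetrix rat array each, 15 arrays in all. Arrays are named here by the numbers in their titles, which differ from those in the descriptions for 9 of the 15.

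Hepatocytes secrete triglyceride and cholesterol in particles built around apolipoprotein B, while apolipoprotein A-I is the main structural protein of high-density lipoprotein. Smaller apolipoproteins move between particles, activate or inhibit lipases and act as ligands for the receptors that clear remnants. Apon encodes apolipoprotein N, a plasma apolipoprotein gene that lies next to Apof in the rat genome.

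The arrays had the makeup of liver. The 6 tested hepatocyte markers had a mean log2 level between 7.63 and 7.96 in every array. By diet that mean ran from 7.74 to 7.96 with control, from 7.66 to 7.88 with daidzein and from 7.63 to 7.80 with genistein, with averages of 7.84, 7.76 and 7.68. The genistein arrays thus tended lower on this mean. The log2 of the summed marker levels differed less. It ran from 10.87 to 10.92 with control, 10.87 to 10.90 with daidzein and 10.86 to 10.89 with genistein. That sum rests mostly on the brightest markers, and quantile normalisation gives each rank the same value on every array. The sum could therefore differ little, and nothing is read from it. The part of the shift of the mean in the values below was not tested. Exocrine pancreas markers averaged 6.46 in daidzein array 5 and at most 1.17 in the other arrays. Differences without that array are given below for Apon, as ranges for the other members, and for some of the listed pathway genes. Mean levels of the Kupffer, stellate, endothelial, cholangiocyte, leukocyte, enterocyte and erythroid lists overlapped between all pairs of diets, and all 3 adipocyte markers were below the brightness filter. Pairwise correlations between arrays ran from 0.931 to 0.969. In whole liver, fewer cells of a type and less RNA per cell cannot be told apart, and the number of arrays limits the precision.

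The bases just before the start site are shown for Apon, the member whose level differed between diets, and for Apoh and Apom as members whose levels did not separate by diet. The sequences are RefSeq's for the GRCr8 build, 250 bases each, printed 5′ to 3′ on the gene's strand. Apon lies at chr7:1272918-1273167 (minus strand), Apoh at chr10:93841742-93841991 (plus strand) and Apom at chr20:3695368-3695617 (plus strand). Capitals mark matches to any of 7 motifs, searched on both strands.
Apon: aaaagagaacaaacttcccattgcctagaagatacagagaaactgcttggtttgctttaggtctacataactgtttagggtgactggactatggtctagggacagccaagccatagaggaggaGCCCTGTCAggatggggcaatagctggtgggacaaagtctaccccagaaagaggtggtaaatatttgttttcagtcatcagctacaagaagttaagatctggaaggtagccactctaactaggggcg
Apoh: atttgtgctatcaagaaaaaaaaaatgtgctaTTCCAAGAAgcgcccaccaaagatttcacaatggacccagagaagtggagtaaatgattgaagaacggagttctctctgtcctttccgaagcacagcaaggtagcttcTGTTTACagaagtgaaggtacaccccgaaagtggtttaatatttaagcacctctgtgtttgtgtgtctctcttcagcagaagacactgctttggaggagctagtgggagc
Apom: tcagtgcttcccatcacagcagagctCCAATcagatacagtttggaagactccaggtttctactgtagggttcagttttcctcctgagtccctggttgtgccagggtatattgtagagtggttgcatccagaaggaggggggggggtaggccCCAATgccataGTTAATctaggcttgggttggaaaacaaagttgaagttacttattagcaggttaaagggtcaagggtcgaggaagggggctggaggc

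The motifs were TATAAA (the core promoter element bound by TBP), CCAAT (the box bound by NF-Y), TGTTTAC (forkhead), AGGTCA (nuclear receptor half-site), GTTAAT (HNF1 half-site), TTCNNNGAA (STAT) and TGACNNNGC (core of the antioxidant response element). Apon held 1 match, to TGACNNNGC on the reverse strand, starting 127 bases before the start site. The same motif occurred in 10.1% of all 33469 promoters of that length, so a match is common. Apoe, whose tested probe set did not separate by diet, also held it, starting 47 bases before 1 of its start sites. Apoh held TGTTTAC, found in 3.21% of promoters, and TTCNNNGAA, found in 7.67%. Apom held GTTAAT, found in 6.45% of promoters, and 2 copies of CCAAT, found in 34.0%. Of the others, TATAAA occurred in 12.9% and AGGTCA in 14.1% of promoters. Promoters were matched for 6 of the 10 members. Apoa5 was the only matched member with TATAAA or AGGTCA. A match is a string of letters and not a measured binding site.

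**Figure D1:**
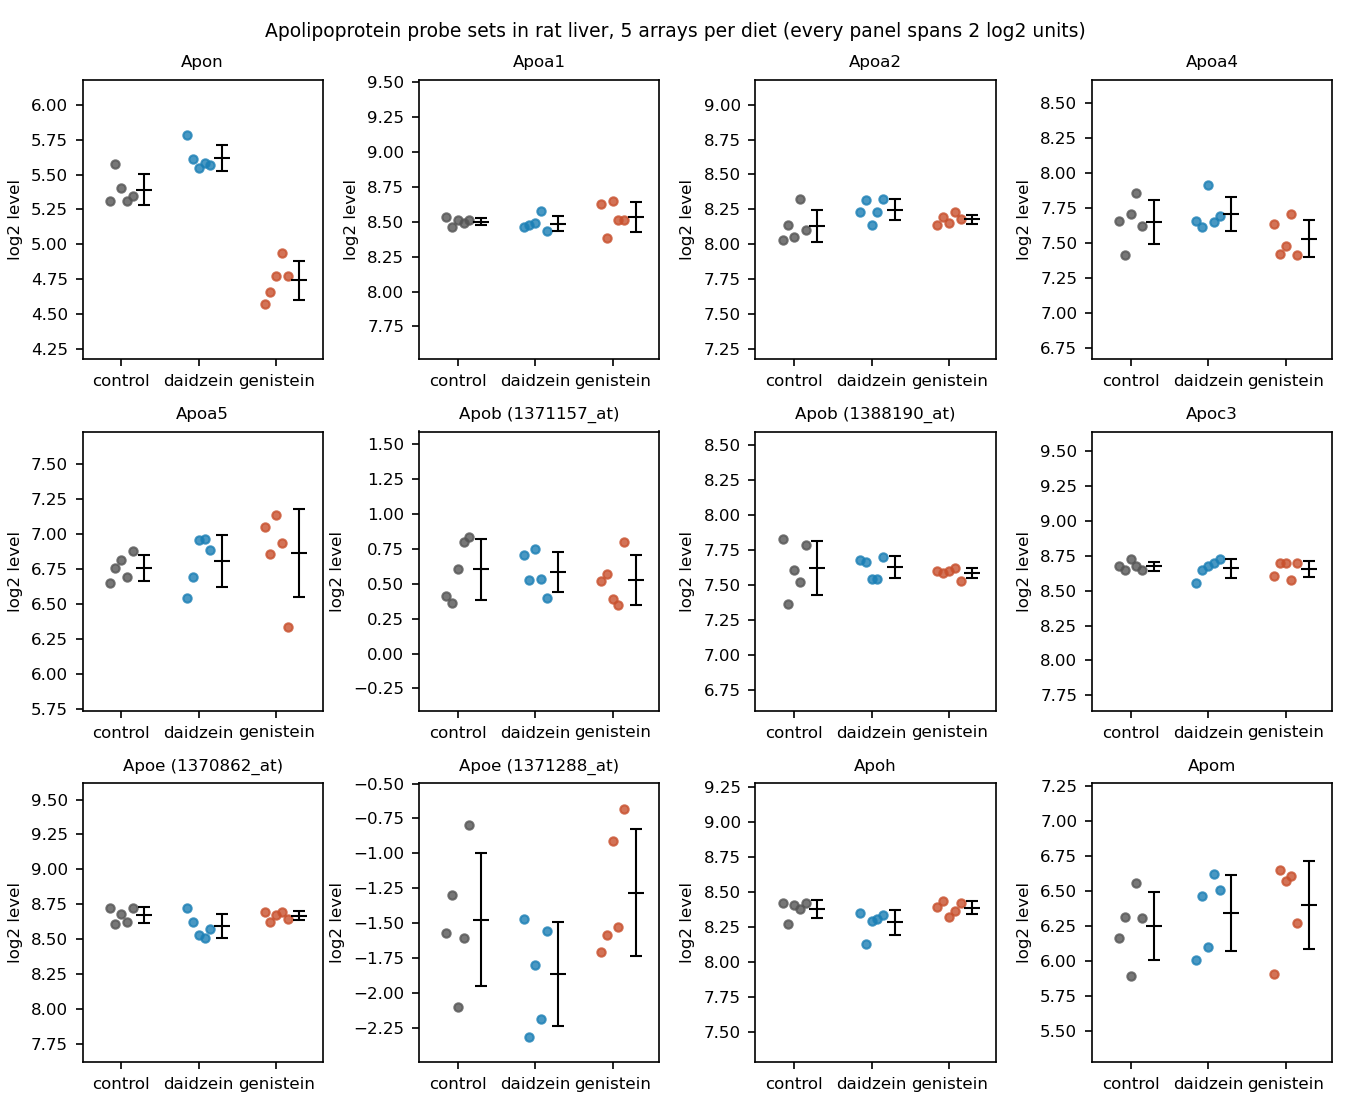
Log2 level (vertical axis, on the rescaled and quantile-normalised values) of each of the 12 apolipoprotein probe sets by diet, 1 point per array and 5 arrays per diet. The bar beside each group is the mean ± SD, and every panel spans the same log2 range. Apon in genistein-fed rats, between 4.57 and 4.94, lies below every control and daidzein array, and the diets overlap in every other panel.

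Apon was lower in the livers of genistein-fed rats than in both other groups. The control arrays 1 to 5 read 5.31, 5.58, 5.41, 5.31 and 5.35 on the log2 scale. Daidzein arrays 1 to 5 read 5.78, 5.61, 5.55, 5.58 and 5.57, and genistein arrays 1 to 5 read 4.57, 4.77, 4.66, 4.94 and 4.77. The highest genistein array was below the lowest array of either other diet, while control array 2 lay inside the daidzein range. The group means were 5.39 ± 0.11 for control, 5.62 ± 0.09 for daidzein and 4.74 ± 0.14 for genistein (SD, n = 5 each).

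Apon was 0.65 lower on the log2 scale with genistein than with control (difference -0.65, SE 0.08, 95% interval -0.83 to -0.47), a level 1.57-fold lower. With daidzein it was 0.23 higher than control (SE 0.08, interval 0.05 to 0.41, 1.17-fold), all 5 arrays lying above the control mean. This difference was not called, and the 2 groups overlapped. Genistein and daidzein, the 1 pair of compounds that could be set against each other, were fed at the same dose for the same time. Between them the Apon difference was -0.87 (SE 0.08, interval -1.05 to -0.70), a 1.83-fold lower level with genistein. The comparisons share groups of arrays and are not independent of each other. Without daidzein array 5 the difference between the isoflavones was -0.89, and that between daidzein and control 0.24.

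A probe set counted as called when its limma p-value, adjusted by Benjamini-Hochberg over all 18625 tested probe sets, was under 0.05. Of the 11 tested member probe sets, 1 was called for genistein against control, where 0.322% of all tested probe sets were called. For daidzein against control 0 were called, against 0.0161% of all. At an unadjusted limma p under 0.05 that comparison held 1 of the 11 tested member probe sets, Apon's, against 8.25% of all tested probe sets. For genistein against daidzein 1 was called, against 0.113% of all. The call was Apon's each time, and since those contrasts chose it nothing is read from these shares. The 5 arrays of each diet did not overlap for 1 member probe set in genistein against control, 0 in daidzein against control and 1 in genistein against daidzein. Over all tested probe sets that was so for 2.57%, 1.88% and 2.03%.

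Apon's call against control was absent when arrays were only centred on their medians (difference -0.64, SE 0.14) and when the daidzein arrays were left out of the fit (-0.65, SE 0.09). Leaving out 1 array at a time gave differences from -0.70 to -0.60 against control and from -0.92 to -0.83 against daidzein. On rebuilt linear intensities Apon ran from 893 to 2298 units over the 15 arrays, between the 96.49 and 98.37 percentiles of its array.

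**Figure D2:**
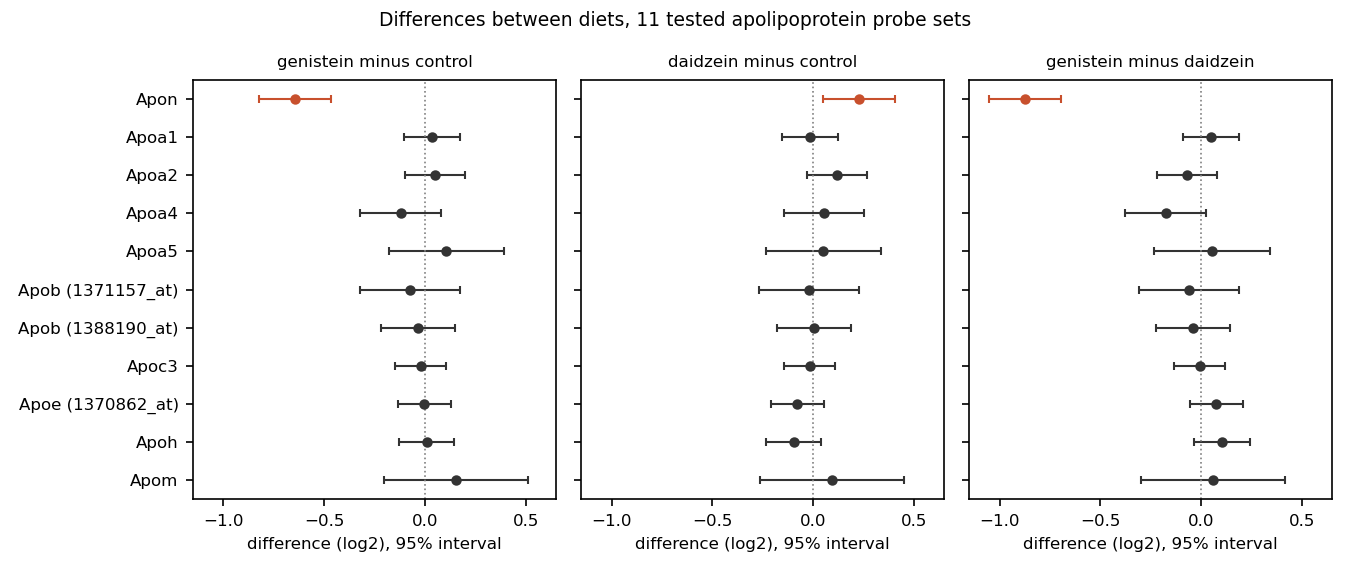
Difference in log2 level (horizontal axis) between diets for the 11 tested apolipoprotein probe sets, with 95% intervals from the limma model on 15 arrays. One panel is shown per comparison, with Apon in red. Apon lies at -0.65, 0.23 and -0.87, and the other 10 probe sets lie between -0.17 and 0.15 in all 3 panels.

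The other members showed no such separation. Their 10 tested probe sets differed by -0.12 to 0.15 between genistein and control, by -0.10 to 0.12 between daidzein and control and by -0.17 to 0.10 between genistein and daidzein. The 95% intervals of these differences reached from -0.33 to 0.51, from -0.27 to 0.45 and from -0.38 to 0.42. Those ends are the widest over the 10 probe sets, and some probe sets had narrower intervals. A difference inside a probe set's own interval is not excluded with 5 arrays per diet. The values therefore do not show that the isoflavones act alike on these genes. Without daidzein array 5 the same 10 differed by -0.11 to 0.10 from control and by -0.18 to 0.12 between the isoflavones. The median over the 11 tested member probe sets was within 0.01 of 0 in each comparison, as was the median over all tested probe sets.

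Among the proteins of high-density lipoprotein, Apoa1, its main structural protein, averaged 8.50 ± 0.03 with control, 8.49 ± 0.05 with daidzein and 8.53 ± 0.11 with genistein. Genistein array 3 was the lowest of all 15 at 8.38, and genistein array 2 the highest at 8.65, so the spread lay within 1 diet. Apoa2, the second protein of these particles, read 8.03, 8.14, 8.05, 8.32 and 8.10 in control arrays 1 to 5. In daidzein arrays it read 8.23, 8.32, 8.14, 8.23 and 8.32, and in genistein arrays 8.14, 8.15, 8.19, 8.23 and 8.18. All 5 arrays of each isoflavone diet lay above the control mean. All 3 diets overlapped, and the difference of 0.12 (SE 0.07) between daidzein and control was the largest of the 10 probe sets in that comparison.

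Apom, which carries sphingosine-1-phosphate on high-density lipoprotein, had the widest spread within diets among the tested members, with an SD of 0.28. Its arrays ran from 5.89 to 6.55 with control, from 6.01 to 6.62 with daidzein and from 5.90 to 6.65 with genistein. The ranges nearly coincide. The difference between genistein and control was 0.15 (SE 0.17), and it was 0.07 without control array 3 and 0.28 without genistein array 1.

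Apoa4, a lipid-binding protein of intestine and liver, came next to Apon among the tested members in the size of its difference between the isoflavones. Its control arrays read 7.66, 7.41, 7.70, 7.85 and 7.62. Daidzein arrays read 7.66, 7.61, 7.92, 7.65 and 7.69, and genistein arrays 7.64, 7.48, 7.42, 7.70 and 7.41. All 5 genistein arrays lay below the daidzein mean, yet the groups overlapped. The difference was -0.17 (SE 0.09, interval -0.37 to 0.03).

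Apoa5, which promotes lipolysis by lipoprotein lipase, averaged 6.76 ± 0.09 with control, 6.81 ± 0.18 with daidzein and 6.86 ± 0.31 with genistein. The genistein spread came from array 5 at 6.34, the lowest of all 15, beside array 2 at 7.14, the highest. Apoc3, an inhibitor of triglyceride clearance, averaged 8.68 ± 0.03, 8.66 ± 0.07 and 8.65 ± 0.06 in the order control, daidzein and genistein. Apoa1, Apoc3, Apoa4 and Apoa5 neighbour each other on 1 chromosome in the RefSeq annotation, and their 4 differences between genistein and control were 0.04, -0.02, -0.12 and 0.11, with no common direction.

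Apob, the structural protein of very-low-density lipoprotein, was measured by a bright and a dim probe set. The bright one (1388190_at) averaged 7.62 ± 0.19 with control, 7.63 ± 0.08 with daidzein and 7.59 ± 0.04 with genistein. The dim one (1371157_at) averaged 0.60 ± 0.22, 0.58 ± 0.14 and 0.52 ± 0.18 in the same order. Neither separated the diets, and neither difference between genistein and control, -0.03 or -0.08, exceeded its SE of 0.09 or 0.12.

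Apoe, the receptor ligand of remnant particles, also had a bright and a dim probe set. The bright one (1370862_at) averaged 8.67 ± 0.06 with control, 8.59 ± 0.09 with daidzein and 8.67 ± 0.03 with genistein. The dim one (1371288_at) was the 1 member probe set below the brightness filter, with arrays from -2.31 to -0.68, so it was not among the tested probe sets. In the fit without that filter its difference between genistein and daidzein was 0.58 (SE 0.26), against 0.07 (SE 0.06) for the bright one. Apoh, a phospholipid-binding plasma glycoprotein also called beta-2-glycoprotein I, averaged 8.38 ± 0.06 with control, 8.28 ± 0.09 with daidzein and 8.39 ± 0.05 with genistein. All 5 daidzein arrays of Apoh lay below the control mean, and the groups overlapped.

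The brightest members allow little room for a change to show. Apoa1, Apoc3, Apoh and the bright Apoe probe set lay at or above the 99.87 percentile of every array, where quantile normalisation, which gives each rank the same value on every array, narrows the spread. The within-diet SD was 0.05 for Apoc3 and 0.06 for this Apoe probe set, against a median of 0.22 over all tested probe sets and 0.09 over the brightest 1%. With median centring in its place, the SE of the Apoc3 difference was 0.18 rather than 0.06. The sign of at least 1 of the 3 differences changed with the scaling for Apoa1, Apoa2, Apoa5, the bright Apob probe set, Apoc3, the bright Apoe probe set and Apoh.

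**Figure D3:**
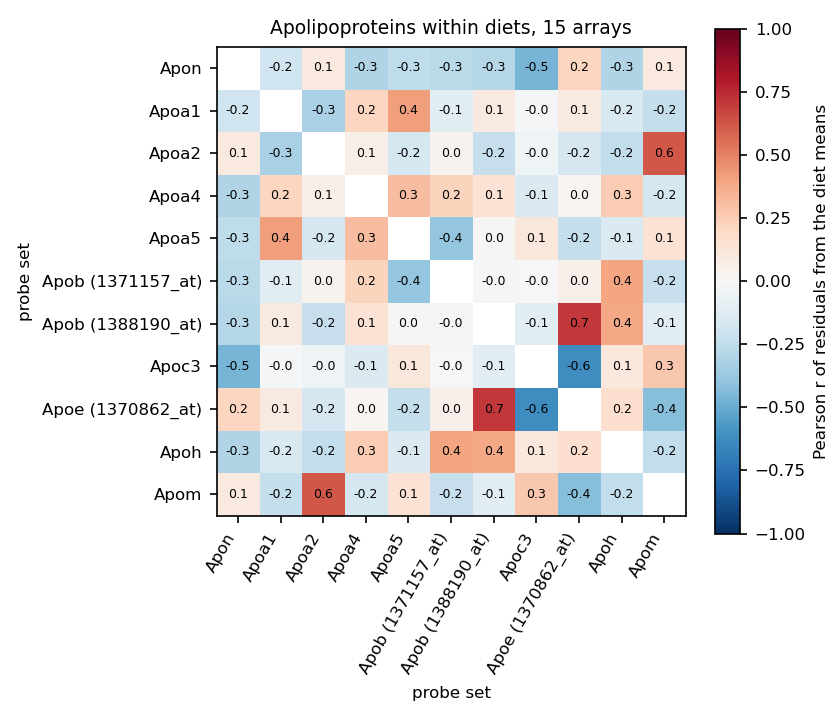
Pearson correlation (colour, from -1 to 1) of each pair of the 11 tested apolipoprotein probe sets over 15 arrays, after each diet's mean was subtracted. Few cells are strongly coloured: 2 pairs exceed 0.5, and Apoc3 with Apoe is the 1 pair below -0.5.

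Within diets the members did not move as one group on the quantile-normalised values. Over 55 pairs the median correlation of residuals from the diet means was -0.02, from -0.62 for Apoc3 with Apoe to 0.70 for the bright Apob probe set with Apoe (15 arrays, which share the same normalisation). Apoa2 with Apom followed at 0.62. Apon correlated between -0.47 (with Apoc3) and 0.21 with the other 10 probe sets, and the middle 50% of all other tested probe sets gave Apon correlations from -0.23 to 0.20. These values rested on the scaling. With arrays only centred on their medians, the median over the 55 pairs was 0.78 and 45 pairs exceeded 0.5. Apoc3 with Apoe was then at 0.94 in place of -0.62. Values over other probe sets are not given with median centring, so 0.78 is not read as a trait of apolipoproteins.

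**Figure D4:**
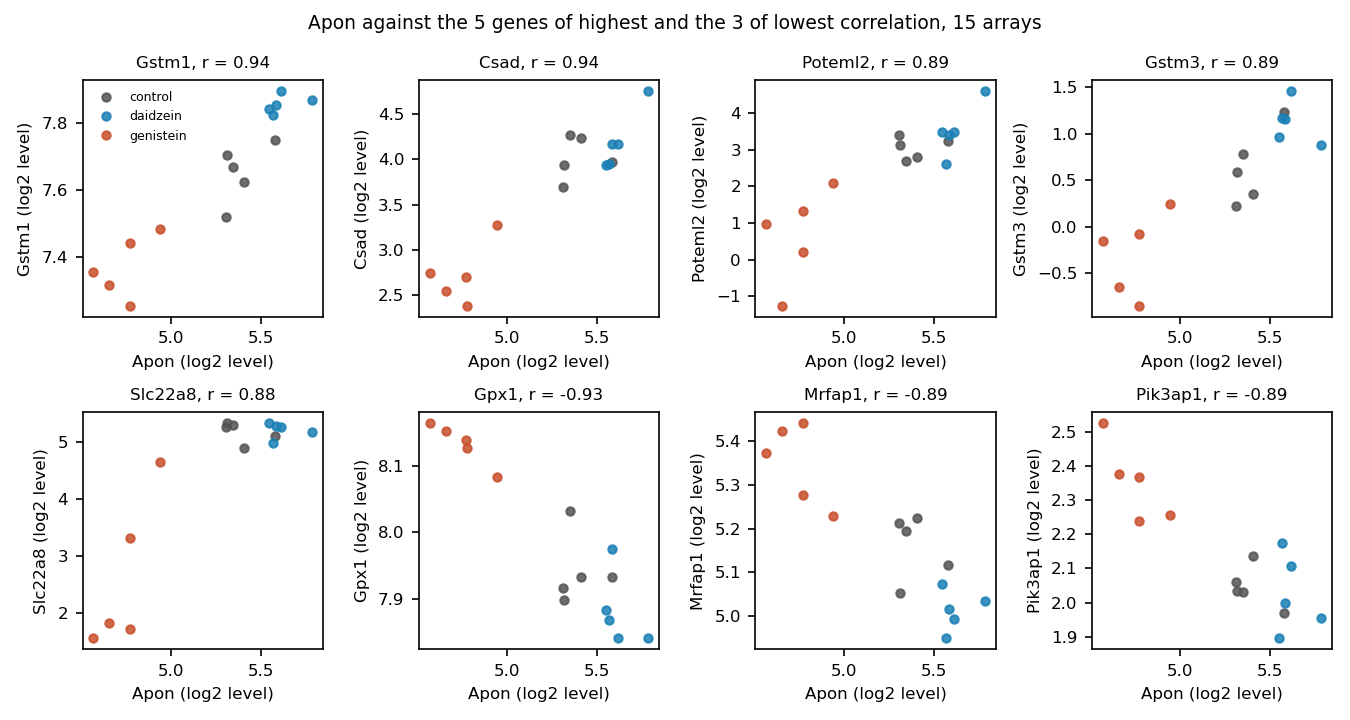
Log2 level of Apon (horizontal axis) against that of 8 other genes (vertical axis), 1 point per array, coloured by diet: the 5 genes of highest and the 3 of lowest Pearson correlation with Apon over 15 arrays. The 5 genistein arrays sit at the low end of the Apon axis in every panel, apart from the control and daidzein arrays.

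The genes whose levels followed Apon most closely over the 15 arrays were Gstm1 (r = 0.94), Csad (0.94), Poteml2 (0.89), Gstm3 (0.89) and Slc22a8 (0.88), among 10734 genes. Most of each correlation lay between diets: with diet means removed r was 0.54, 0.58, 0.53, 0.40 and 0.54. Within diets none of the 5 was among the 5 genes most like Apon, and 2 of them were among the top 5 by Spearman's rank correlation. These genes were picked for their likeness, so their own diet differences are given without a test.

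Gstm1, a mu-class glutathione S-transferase, ran from 7.52 to 7.75 with control, from 7.82 to 7.90 with daidzein and from 7.25 to 7.48 with genistein, in the same order of diets as Apon and with no overlap. Gstm3, of the same class, ran from 0.22 to 1.23, from 0.88 to 1.46 and from -0.86 to 0.24. Mu-class genes are near-identical copies in part, and sharing of signal between their probe sets was not tested. Csad, the decarboxylase of taurine synthesis, read 3.69 to 4.27 with control, 3.94 to 4.76 with daidzein and 2.38 to 3.28 with genistein.

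Slc22a8, an organic anion transporter, was at 4.89 to 5.33 with control, 4.99 to 5.34 with daidzein and 1.56 to 4.65 with genistein. Its difference between daidzein and control was 0.03, with an SE of 0.45 from the spread pooled over all 3 diets. Most of that spread lay with genistein (SD 1.34, against 0.18 for control and 0.14 for daidzein). On that SE the difference could not be told from Apon's 0.23. The 3 genes most opposed to Apon were Gpx1 (r = -0.93), Mrfap1 (-0.89) and Pik3ap1 (-0.89). Gpx1, a glutathione peroxidase, was at 8.08 to 8.16 with genistein, above 7.90 to 8.03 with control and 7.84 to 7.98 with daidzein.

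The genes around Apon gave smaller differences than Apon in both genistein comparisons. Of the 10 nearest protein-coding genes in RefSeq order, 5 on each side and picked after the values were available, 9 were on the array and 6 were tested. Neither of the 2 genes adjacent to Apon, Timeless and Apof, was among them. None was called in any comparison. At an unadjusted limma p under 0.05 were 1, 2 and 1 in genistein-control, daidzein-control and genistein-daidzein, against 11%, 8.25% and 9.37% of all tested probe sets. The lowest adjusted limma p, 0.232, belonged to Stat2, a transcription factor of interferon signalling. Stat2 was 0.23 lower with genistein than with control (SE 0.07), and its 5 arrays did not overlap between those diets. Pan2's daidzein arrays, from 1.507 to 1.658, overlapped neither control (1.693 to 1.804) nor genistein (1.664 to 1.793). Arrays did not overlap for 2.57%, 1.88% and 2.03% of all tested probe sets, in the same order of comparisons. All 6 neighbours lay below 0 between genistein and control, from -0.23 to -0.01, beside -0.65 for Apon. All 6 also lay below 0 between daidzein and control, from -0.27 to -0.02, beside 0.23 for Apon. Over all tested probe sets 49.98% and 50.08% lay above 0 in those 2 comparisons. The neighbours' differences between genistein and daidzein ran from -0.06 to 0.15, beside -0.87 for Apon.

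Genes of the wider lipoprotein pathway gave no call in any of the 3 comparisons. Counts at an unadjusted limma p under 0.05 are given for each list, in the order genistein-control, daidzein-control and genistein-daidzein. Over all tested probe sets 11%, 8.25% and 9.37% met that threshold. Of 15 further apolipoprotein-related genes, 9 were tested, with 0, 2 and 2 at that threshold. Clu (apolipoprotein J) had the lowest p among them between the isoflavones, at 6.59 ± 0.18 with genistein and 6.98 ± 0.09 with daidzein (n = 5 each). Its genistein arrays, from 6.32 to 6.81, did not overlap its daidzein arrays, from 6.85 to 7.07, as was so for 2.03% of all tested probe sets. The control mean of Clu, 6.78, lay between them, the same order of diets as for Apon. The Clu difference was -0.39 (SE 0.10, limma adjusted p = 0.126). It was followed by Apool at 0.43 (limma adjusted p = 0.238). For genistein against control the lowest were Clu at -0.19 (0.504) and Apobec1, the Apob mRNA editing enzyme, at 0.16 (0.747). For daidzein against control they were Apool at -0.33 (0.525) and Clu at 0.21 (0.604). Apool and Apobec1 are not plasma apolipoproteins themselves.

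Of 20 genes of lipoprotein assembly and remodelling, 15 were tested and none was called, with 2, 1 and 3 at an unadjusted p under 0.05. Mttp, which loads lipid onto apolipoprotein B, was 0.23 higher with genistein than with control (SE 0.08, limma adjusted p = 0.305) and 0.28 higher than with daidzein (SE 0.08, adjusted p = 0.222). Abca1, the cholesterol exporter to apolipoprotein A-I, was 0.91 higher with genistein than control (adjusted p = 0.453), and Pon1, an esterase carried on high-density lipoprotein, 0.16 higher than with daidzein (0.503). For daidzein against control the lowest p were those of Angptl8, a lipase regulator, at -0.80 (0.535), and Gpihbp1 at 0.15 (0.718).

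Of 12 receptor genes, 8 were tested and none was called, with 2, 1 and 1 at an unadjusted p under 0.05. Cd36, a fatty acid and lipoprotein receptor, was 1.58 higher with genistein than control (SE 0.37, limma adjusted p = 0.0851), and 4 of 5 genistein arrays lay above the control mean. Against daidzein Cd36 was 1.26 higher (0.217), followed by Sdc1 at 0.14 (0.721). Lrp1, a remnant receptor, was at -0.26 with genistein (0.283) and -0.22 with daidzein (0.566) against control, and Lsr at -0.20 with daidzein (0.715).

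Of 27 regulators of apolipoprotein genes, 24 were tested and none was called, with 5, 2 and 4 at an unadjusted p under 0.05. Rora, a nuclear receptor, was 0.55 lower with genistein than control (SE 0.17, limma adjusted p = 0.196), and Foxa3, a forkhead factor of liver, 0.38 lower (SE 0.12, 0.237). Mlxipl, the glucose-responsive factor, was 0.33 lower with daidzein than control (0.415), and Nr1i3, the nuclear receptor CAR, 0.67 higher (0.548). Between the isoflavones the 2 lowest p were those of Mlxipl at 0.26 (0.432) and Foxa3 at -0.28 (0.494). The medians of these 4 lists lay between -0.09 and 0.07 in the 3 comparisons, beside medians near 0 over all tested probe sets.

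Without daidzein array 5, chosen for this check after its pancreas markers were seen, again no listed gene was called in the daidzein comparisons of limma, with 4 and 6 of 56 at an unadjusted p under 0.05 against control and between the isoflavones. Clu was then at -0.37 between the isoflavones, Mttp at 0.27, Cd36 at 1.23 and Sdc1 at 0.09. Other listed genes moved more, and the largest move was that of Nr1d1, from 0.52 to 0.85 (SE 0.82). Lpl went from 0.25 to 0.38 between the isoflavones and then had the lowest p of the assembly and remodelling list. Against control, daidzein gave -0.87 for Angptl8, -0.28 for Mlxipl and 0.56 for Nr1i3.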

How the data were processed

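Liver RNA of 15 rats was measured on 1 array each. The deposited values are the authors' processed score per probe set, on a log-like scale with array medians of 0.00111 to 0.127. The sources used here do not give the authors' method. Gaps between the most repeated low values fitted whole intensity steps (359 of 359 within 0.001), which gave 2.60 log2 units per deposited unit (2.54 to 2.79 by array). The base and centring of the scale thus rest on that inference. Deposited values times 2.60 were quantile normalised. Control probe sets (57) and those under the 40th percentile of mean level (-0.30) were left out. The fit used limma 3.58.1 in R 4.3.3 on all 3 diets (12 residual and 2.58 prior degrees of freedom), and it was tested on simulated data. Where a non-member gene had several probe sets, that of highest mean level was used.

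The members and lists were chosen with earlier results of these data known. All member probe sets were named, the 5 genes most like and 3 most unlike Apon by correlation, and the called genes of each list or, without any, the 2 of lowest p. Alternatives changed the scaling, filter, weights, arrays and replicate block. Genistein array 3's description ends in "re", which the labels do not explain. Array annotation gave 1 gene to 20832 probe sets, several to 436 and none to 9831.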

Additional observations from a re-analysis of the deposited data

Results flagged for a closer look

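Apon differed between the isoflavones, at -0.87 on the log2 scale for genistein against daidzein. This value equals its difference from the shared control with genistein minus that with daidzein. Apon was selected on its diet differences, so the flag adds no support.

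Among the 36 groups of 5 arrays examined, 4 held an array far from the other 4 by Dixon's criterion, and chance marks about 1 in 20 such groups. For Apon, daidzein array 1 was at 5.78, with the nearest at 5.61, and without it the difference between daidzein and control was 0.19. For Apoa4, daidzein array 3 was at 7.92, with the nearest at 7.69. For Apoh, control array 2 was at 8.27 (nearest 8.38) and daidzein array 2 at 8.13 (nearest 8.29). No other member probe set had such an array.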

How the results depend on the processing

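Over all tested probe sets, the calls numbered 60 for genistein against control, 3 for daidzein against control and 21 for genistein against daidzein, and they moved with the processing. In that order of comparisons, array weights gave 140, 7 and 74. No filter gave 14 and 3 for the genistein comparisons, and median centring 34 and 9. Each array's own scale gave 9 and 16 added units 35 for genistein against daidzein. Only the 10 arrays compared gave 0 (1896 at an unadjusted p under 0.05 with limma) and 2 for the genistein comparisons. Without both control 1 and daidzein 5 the counts were 4, 1 and 4. Leaving out 1 array at a time gave 10 to 203, 2 to 8 and 3 to 136. The highest of these, 203 and 136, came without genistein array 4. The cause was not tested.

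The member calls, 1, 0 and 1, fell to 0 for genistein against control with median centring and with only the 10 arrays, and kept their count in every other alternative, each left-out array included. The calls were Apon's, and since those contrasts chose it nothing is read from how often they were kept. With the replicate block, the counts over all probe sets were 17 and 2 for the genistein comparisons. Title numbers did not pair the arrays: 1 of 15 same-numbered pairs correlated above 0.1 (from -0.16 to 0.11).

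The correlations with median centring were added after the first ones were seen. They rose for Apob with Apoe from 0.70 to 0.77, for Apoa2 with Apom from 0.62 to 0.87 and for Apoc3 with Apoe from -0.62 to 0.94.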
